A study of Mus musculus with 10 samples.

Results

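Open chromatin was set against H3K27me3 in the control samples of a study of the zinc finger protein Casz1 in mouse retina. The members were the called peaks on chromosomes 1 to 19 in 3 of the 10 samples: ATAC-seq control replicate 1 with 39636 peaks, ATAC-seq control replicate 2 with 108569 peaks, and H3K27me3 control with 69708 peaks. Together they made up 217913 peaks, while the 8 lists analysed here held 637821 peaks over all chromosomes. For H3K27me3, 23004 of 92712 deposited peaks lay on other chromosomes and were left out, 22944 of them on X. The members were chosen by group and chromosome alone, and no peak height or overlap entered the choice. Replicate 1 is called the short list and replicate 2 the long list.

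All 3 samples were labelled wild type, strain C57BL/6. The ATAC libraries came from postnatal day 2 retina that was transfected as an explant with a plasmid for GFP alone and kept 2 days ex vivo, after which 50000 viable GFP-positive cells were sorted for each library. The labels name no promoter for the plasmid. The replicates were run on different days, and their peaks carry the stems Ctl_1 and WT_3 in their names. H3K27me3 was measured once, by chromatin immunoprecipitation from microdissected retina at postnatal day 0, and H3K27ac from the same kind of tissue is used here as a companion mark. The marks and the open sites thus come from mixtures of cells at different ages. A site with both may hold them in the same cells or in different ones, which cannot be told apart.

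H3K27me3 is written by Polycomb repressive complex 2 and bound by Polycomb repressive complex 1, and it covers developmental regulators that a cell lineage keeps silent. Polycomb chromatin is not uniformly closed. CpG islands, where the complexes gather, often remain accessible to enzymes, and in progenitors many such promoters carry active and repressive marks together. In ATAC-seq the transposase Tn5 inserts adapters into accessible DNA, so a peak marks a site where insertions pile up. In neonatal retina, progenitors are still making rods, bipolar cells and Müller glia, while ganglion, horizontal and most amacrine cells and cones already exist.

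The lists hold positions only, so the depth of each library is unknown and a longer list may come from deeper sequencing. Median peak width was 210 bp in the short list, 474 bp in the long list and 314 bp in H3K27me3, whose widest peak reached 261754 bp. The lists covered 11.6, 59.8 and 71.6 Mb, or 0.472%, 2.43% and 2.91% of the autosomal span. Of 27 retinal progenitor genes, 26 had a peak of the short list within 1 kb of their start and 27 had one of the long list. Over all protein-coding genes the shares were 58.0% and 69.8%. The corresponding counts were 3 and 9 of 23 for genes of red cells, liver and muscle, and 3 and 5 of 16 for microglial genes. They were 28 and 28 of 28 for cell cycle genes and 13 and 46 of 51 for homeobox regulators of other organs. Such counts therefore do not identify the tissue. With 1 H3K27me3 library there was no test. The main shares carry exact Clopper-Pearson 95% intervals, densities carry exact Poisson intervals, and both cover counting error only.

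The sequences below are examples of 3 kinds of promoter found under H3K27me3. They were picked by domain width and need not be typical of their kind. Each is the 250 bases before a RefSeq start (GRCm38.p6, read 5′ to 3′ on the gene's strand), lies wholly under H3K27me3, and has every CpG in capitals. The first set meets an ATAC peak in both lists: Msx1 of tooth and craniofacial buds (chr5:37824586-37824835, minus strand, 92 bp under the short list and 250 under the long), the zinc finger gene Zic1 of neural progenitors (chr9:91365769-91366018, minus strand, 207 and 250 bp) and the ligand gene Wnt9a (chr11:59306680-59306929, plus strand, 140 and 250 bp).
Msx1: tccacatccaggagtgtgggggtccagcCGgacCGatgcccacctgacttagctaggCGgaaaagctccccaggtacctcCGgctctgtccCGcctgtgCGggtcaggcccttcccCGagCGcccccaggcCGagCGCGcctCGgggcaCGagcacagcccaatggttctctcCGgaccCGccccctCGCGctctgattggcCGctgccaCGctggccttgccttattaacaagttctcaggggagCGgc
Zic1: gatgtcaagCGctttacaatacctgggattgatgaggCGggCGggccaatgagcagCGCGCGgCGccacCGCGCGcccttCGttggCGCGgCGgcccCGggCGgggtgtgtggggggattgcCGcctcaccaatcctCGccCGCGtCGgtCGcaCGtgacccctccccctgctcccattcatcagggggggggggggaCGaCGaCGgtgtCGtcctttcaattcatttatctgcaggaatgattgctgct
Wnt9a: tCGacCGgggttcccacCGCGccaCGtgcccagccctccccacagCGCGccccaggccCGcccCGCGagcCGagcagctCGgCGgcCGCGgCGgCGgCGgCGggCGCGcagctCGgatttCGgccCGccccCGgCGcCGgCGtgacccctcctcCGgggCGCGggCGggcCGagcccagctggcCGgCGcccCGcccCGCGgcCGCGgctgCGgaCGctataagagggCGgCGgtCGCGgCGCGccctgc
The second set meets a peak of the long list alone: Cryba2, a lens crystallin (chr1:74893144-74893393, minus strand, 250 bp), Lmx1b of dorsal limb and midbrain (chr2:33641099-33641348, minus strand, 228 bp) and Pax7 of muscle and dorsal neural tube (chr4:139832969-139833218, minus strand, 8 bp).
Cryba2: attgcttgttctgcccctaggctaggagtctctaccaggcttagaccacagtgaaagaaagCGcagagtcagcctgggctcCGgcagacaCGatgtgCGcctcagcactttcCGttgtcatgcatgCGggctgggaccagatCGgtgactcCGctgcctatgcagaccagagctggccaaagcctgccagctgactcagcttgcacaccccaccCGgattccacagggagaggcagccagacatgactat
Lmx1b: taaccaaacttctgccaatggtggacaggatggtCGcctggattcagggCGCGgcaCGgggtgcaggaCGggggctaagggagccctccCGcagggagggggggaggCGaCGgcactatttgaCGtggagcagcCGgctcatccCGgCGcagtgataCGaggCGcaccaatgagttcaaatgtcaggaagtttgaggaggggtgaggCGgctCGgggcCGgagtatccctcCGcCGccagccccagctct
Pax7: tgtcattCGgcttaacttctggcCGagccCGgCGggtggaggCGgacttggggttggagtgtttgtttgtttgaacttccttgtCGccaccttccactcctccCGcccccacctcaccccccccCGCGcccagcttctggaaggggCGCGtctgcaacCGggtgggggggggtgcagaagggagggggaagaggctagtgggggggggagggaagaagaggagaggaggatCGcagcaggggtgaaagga
The third set meets no ATAC peak: Hoxb1 of the hindbrain (chr11:96365508-96365757, plus strand), Evx2 beside the Hoxd cluster (chr2:74659558-74659807, minus strand) and Irx4 (chr13:73260247-73260496, plus strand).
Hoxb1: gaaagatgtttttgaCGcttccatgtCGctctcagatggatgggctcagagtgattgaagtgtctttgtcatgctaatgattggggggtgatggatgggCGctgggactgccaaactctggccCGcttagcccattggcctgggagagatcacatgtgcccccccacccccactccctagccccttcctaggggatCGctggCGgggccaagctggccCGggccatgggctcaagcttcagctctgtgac
Evx2: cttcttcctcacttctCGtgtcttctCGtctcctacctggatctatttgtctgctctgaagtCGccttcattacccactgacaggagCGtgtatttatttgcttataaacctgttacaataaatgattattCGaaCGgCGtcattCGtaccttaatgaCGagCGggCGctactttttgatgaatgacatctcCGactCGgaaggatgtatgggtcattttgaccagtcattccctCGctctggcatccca
Irx4: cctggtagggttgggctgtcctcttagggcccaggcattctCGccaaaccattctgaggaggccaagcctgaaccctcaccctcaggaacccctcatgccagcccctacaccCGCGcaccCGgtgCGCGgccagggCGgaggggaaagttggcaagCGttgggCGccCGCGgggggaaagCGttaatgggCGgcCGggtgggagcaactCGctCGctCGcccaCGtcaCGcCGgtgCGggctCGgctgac
The promoters of the first set held 20 (Msx1), 27 (Zic1) and 48 (Wnt9a) CpGs. Those of the second held 9 (Cryba2), 19 (Lmx1b) and 13 (Pax7). Those without a peak held 7 (Hoxb1), 14 (Evx2) and 22 (Irx4), so single promoters of the kinds overlap in CpG number. These 3 are rich in CpG for their kind. Promoters of genes with H3K27me3 and no ATAC peak at the start had a median of 3 and an upper quartile of 6.

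The first question was how often an ATAC peak meets H3K27me3 at all. In the short list 4344 of 39636 peaks did so by at least 1 bp, or 11.0% (interval 10.7 to 11.3). In the long list 13728 of 108569 did, or 12.6% (12.4 to 12.8). The shares of the 2 lists were thus close although the long list holds many more peaks. The range over chromosomes was wider than either interval, from 7.39% on chromosome 16 to 13.0% on chromosome 19 in the short list and from 9.17% to 15.7% on the same chromosomes in the long list. Of the bases under ATAC peaks, 7.39% of the short list and 11.8% of the long list lay under H3K27me3, which is 2.54 and 4.04 times the share of the span that H3K27me3 covers. By chromosome this ratio ran from 1.30 (chromosome 11) to 4.49 (chromosome 3) in the short list. In the long list it ran from 2.57 to 5.91 on the same chromosomes. Seen from the mark, ATAC peaks took up 1.20% of H3K27me3 bases in the short list and 9.82% in the long list.

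The lists share most of these sites in one direction only. Of the short list's peaks, 98.6% met a peak of the long list, and inside H3K27me3 99.2% did. Long-list peaks that the short list also called met H3K27me3 in 14.7% of cases and lay inside it in 6.04%. Those that the short list did not call met it less often, in 11.7%, yet lay wholly inside it more often, in 8.28%. Their median width was 352 bp against 770 bp for the shared ones.

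Next, each ATAC peak was given a place. A peak was inside when it lay wholly within an H3K27me3 peak, at the edge when it crossed a border, in a gap when it lay between H3K27me3 peaks no more than 1 kb apart, near when it was otherwise within 1 kb, and outside when it was farther. Inside peaks numbered 2948 in the short list (7.44%, interval 7.18 to 7.70) and 8222 in the long list (7.57%, 7.42 to 7.73). Edge peaks were 3.52% of the short list and 5.07% of the long list. Gap peaks were rare, at 0.911% and 0.200%, and near peaks came to 9.88% and 5.44%. The remaining 78.2% and 81.7% lay outside. Among peaks that met the mark, the inside share was 67.9% in the short list and 59.9% in the long list. That order turned when every ATAC peak was reduced to its central 100 bp, with 85.4% in the short list and 89.2% in the long list. Which list had the larger inside share thus depended on the width used, and the reason for the split was not tested.

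**Figure D1:**
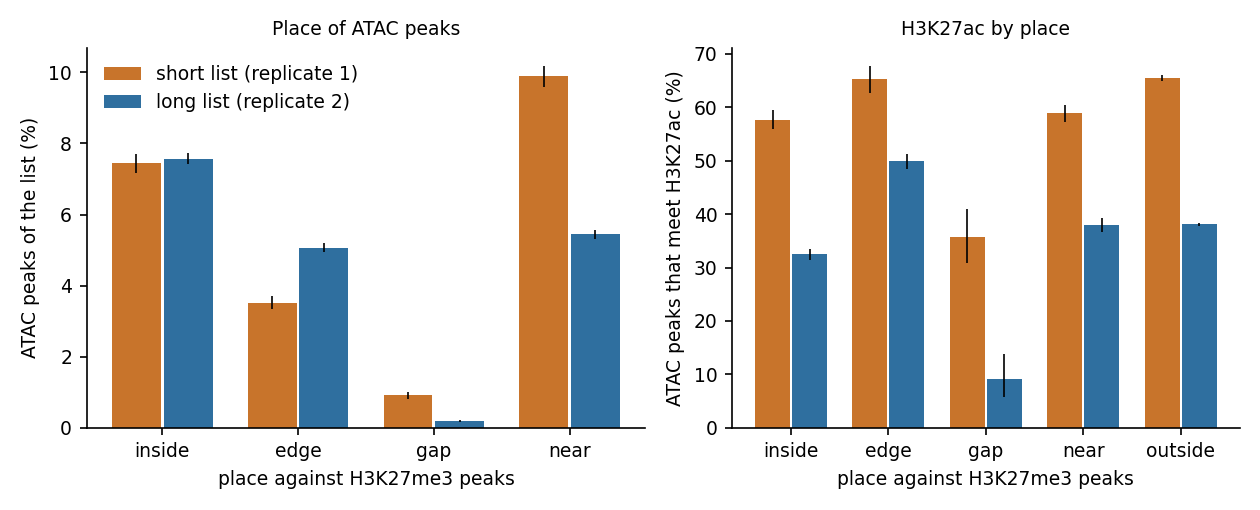
Left, percent of each ATAC list that lay inside, at the edge of, in a gap between or near H3K27me3 peaks (the outside class is left out). Right, percent of the ATAC peaks of each place that met an H3K27ac peak; bars are shares with exact 95% intervals. Inside shares were alike in both lists (7.44% and 7.57%), while the short list had more near peaks and the long list more edge peaks.

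Density gives the same places per length of sequence, with each ATAC peak counted once by its midpoint. The short list had 48.6 midpoints per Mb inside H3K27me3 peaks (interval 47.0 to 50.2), 52.3 in the gaps, 65.5 in other sequence within 1 kb, and 13.6 farther away. In the long list these were 145.5, 93.3, 108.8 and 39.0. H3K27me3 peaks therefore held 3.57 times the distant density in the short list and 3.73 times in the long list. The lists differed in where density was highest: the flanks led in the short list and the H3K27me3 peaks themselves in the long list.

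What the peaks in each place share beyond position was read from H3K27ac, found at active regulatory elements, and from gene starts. Of inside peaks, 48.0% of the short list and 35.5% of the long list lay within 1 kb of a protein-coding gene start, against 32.9% and 11.2% of outside peaks. Yet inside peaks at starts met H3K27ac less often than outside peaks at starts, with 75.3% against 96.5% in the short list and 51.5% against 89.9% in the long list. Away from starts the shares with H3K27ac were 41.5% inside and 50.2% outside in the short list, and 22.0% and 31.6% in the long list. Edge peaks at starts stood with the outside ones, at 91.8% and 89.7%. Gap peaks of the long list met H3K27ac in only 9.22% of cases (217 peaks), and those of the short list in 35.7% (361 peaks).

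To describe domains, H3K27me3 peaks no more than 1 kb apart were joined, which gave 31863 domains over 85.9 Mb. Most were narrow and held no ATAC peak: of the 13254 domains under 0.5 kb, 1.06% met a peak of the short list and 5.92% one of the long list. The share rose in every wider class. It was 6.29% and 24.8% from 1 to 2 kb, 33.1% and 71.0% from 5 to 10 kb, 46.8% and 85.9% from 10 to 20 kb, and 69.8% (interval 65.6 to 73.8) and 98.0% (96.4 to 99.1) in the 507 domains of 20 kb or more. Only 10 of those 507 met no ATAC peak of either list. Over all 4600 domains of 5 kb or more the shares were 40.6% and 77.7%. With ATAC peaks of at least 300 bp alone, the short list's share was 14.0% and the long list's 73.4%.

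A wider domain has more sequence to hold a peak, so the number per Mb was set beside the share. The short list met domains at 47.5 peaks per Mb under 0.5 kb, 64.0 from 2 to 5 kb and 43.3 at 20 kb or more, with no steady course. The long list fell from 264 under 0.5 kb to 139 from 10 to 20 kb, and was 155 at 20 kb or more. A peak counts for a narrow domain when it touches it by 1 bp, which raises the number per Mb of narrow domains, more so for the wider peaks of the long list. As a share of domain bases the long list rose from 4.54% under 0.5 kb to 10.4% from 5 to 10 kb and was 8.52% at 20 kb or more.

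**Figure D2:**
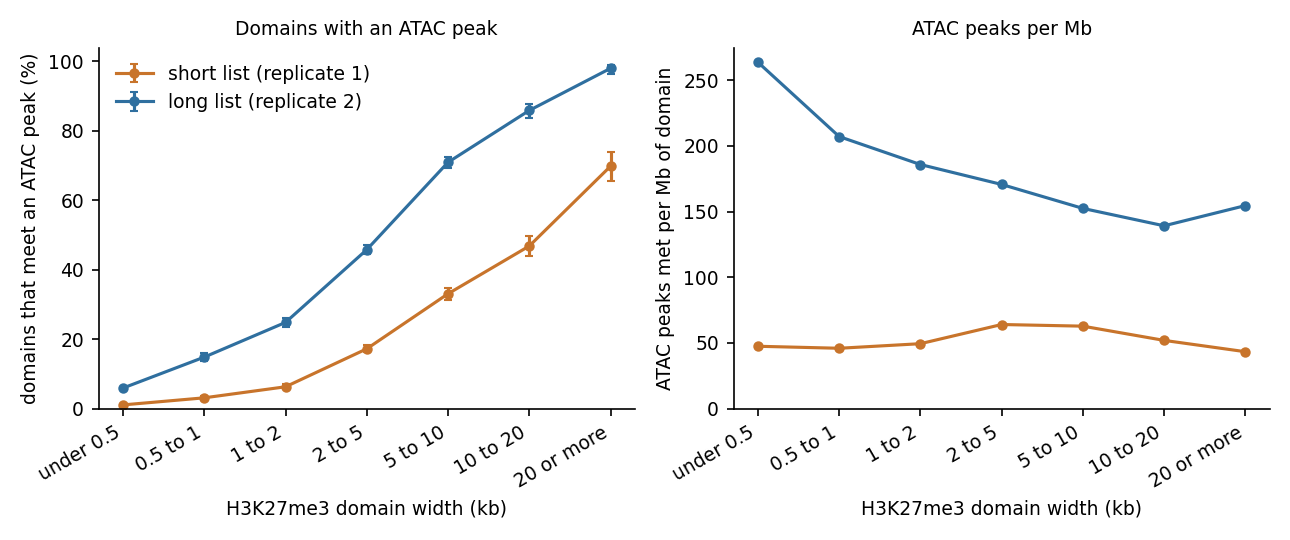
Left, percent of H3K27me3 domains of each width that met an ATAC peak, with exact 95% intervals; right, number of ATAC peaks met per Mb of domain. The share climbs from 1.06% to 69.8% in the short list and from 5.92% to 98.0% in the long list, while the number per Mb shows no such rise.

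Domains with a gene start held ATAC peaks more often than others of the same width. Of the 4600 domains of 5 kb or more, 2092 contained a protein-coding start, and 56.1% of these met the short list (interval 53.9 to 58.2) and 94.2% the long list. In the 832 that lay in a gene without a start the shares were 36.9% and 74.0%, and in the 1676 between genes 23.2% and 59.0%. From 5 to 10 kb, domains between genes met the lists in 16.1% and 50.3% of cases and those with a start in 50.9% and 92.7%. At 20 kb or more the kinds lay closer: domains between genes met the lists in 62.6% and 95.9%, against 72.2% and 98.8% for those with a start.

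The share of ATAC peaks with H3K27ac rose from the narrowest domains to those of middle width and was lowest in the widest. In the short list, 45.1% met H3K27ac in domains under 0.5 kb (interval 36.7 to 53.6) and 70.5% from 1 to 2 kb. The share was 74.6% from 2 to 5 kb (interval 72.0 to 77.0), 61.2% from 5 to 10 kb, 47.9% from 10 to 20 kb and 34.7% (31.4 to 38.1) at 20 kb or more, against 64.7% of peaks that met no domain. In the long list the shares were 39.6% under 0.5 kb, 51.5% from 1 to 2 kb, then 50.8%, 42.4%, 32.3% and 18.9% (17.5 to 20.4), against 38.1%. Gene starts followed a like course in the short list, with 25.4% of peaks at a start under 0.5 kb, 60.4% from 2 to 5 kb and 24.9% at 20 kb or more. Away from starts the shares with H3K27ac under 0.5 kb, from 2 to 5 kb and at 20 kb or more were 29.2%, 51.2% and 28.0% in the short list and 27.4%, 31.7% and 15.0% in the long list.

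Position within a domain was then measured from its border. For the 4600 domains of 5 kb or more, midpoints of the short list numbered 26.7 per Mb in the last 500 bp inside the border (interval 22.2 to 31.9) and 80.0 (72.0 to 88.6) in the 500 bp just outside. They peaked at 95.9 from 500 to 1000 bp outside and were 32.1 at 4500 to 5000 bp outside. In the long list the same 4 bins held 62.4, 115, 144 and 74.8 per Mb. Further in, from 4500 to 5000 bp inside the border, density was 64.8 in the short list and 192 in the long list. Open sites were thus sparser just inside the border than deeper in and just beyond it. The last 500 bp inside still held more than sequence over 1 kb from any H3K27me3 peak, with 13.6 and 39.0 per Mb.

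Bins deeper than the middle of the narrowest domains rest on wider domains only. In the 507 domains of 20 kb or more every inside bin rests on the same domains, and the long list had 134 per Mb (interval 104 to 170) at 4500 to 5000 bp, 71.0 (49.7 to 98.3) in the last 500 bp inside, and 122 in the first 500 bp outside. In the short list these were 37.5, 29.6 and 80.9, with 9.86 (3.20 to 23.0) from 500 to 1000 bp inside. The border contrast was present in both lists, while the higher density at depth in the short list rested on few peaks, 19 in the deepest bin.

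**Figure D3:**
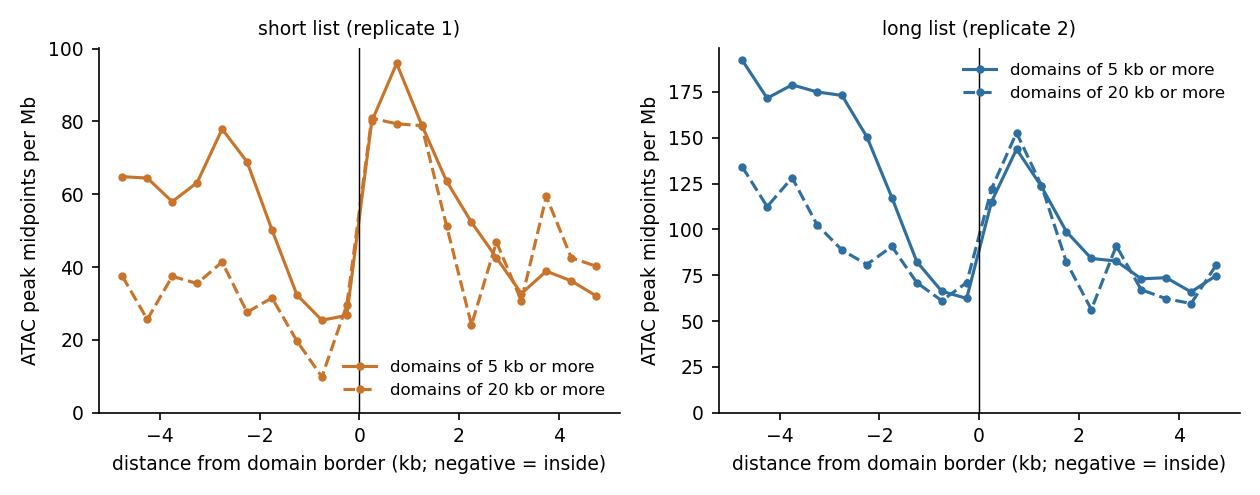
ATAC peak midpoints per Mb in 500 bp bins by distance from the border of H3K27me3 domains (kb, negative inside), for domains of 5 kb or more (solid) and 20 kb or more (dashed). In domains of 5 kb or more the lowest bin of each list lies in the last 1000 bp inside the border. Both lists rise just outside, to 95.9 per Mb in the short list and 144 in the long list. The long list falls again to 65.9 at 4000 to 4500 bp outside, near its low of 62.4 inside.

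The Hox clusters, whose homeobox genes set position along the body axis, lay in 4 of the 10 widest domains, among them the widest. Each cluster lay in 1 domain: Hoxc in 274.8 kb (chr15:102877989-103152781), Hoxb in 247.7 kb (chr11:96143536-96391283), Hoxa in 191.6 kb (chr6:52142486-52334115) and Hoxd in 151.2 kb (chr2:74630606-74781851). The short list had 4, 3, 7 and 7 peaks in these domains and the long list 40, 33, 44 and 30, in the same order. All 39 Hox starts had H3K27me3 within 1 kb and none had H3K27ac. The short list had a peak at 6 of them (Hoxa4, Hoxa10, Hoxc10, Hoxc13, Hoxd9 and Hoxd10), the long list at 31, and 8 had neither (Hoxa6, Hoxa9, Hoxb1, Hoxb3, Hoxb6, Hoxb8, Hoxc12 and Hoxd4). All 7 short-list and 45 long-list peaks at Hox starts lay wholly inside the mark. Base counts for genes, here and below, are summed widths of the whole peaks that come within 1 kb of a start, so they may extend beyond it. Short-list peaks came to 106 bp at Hoxc10, 140 bp at Hoxa10, 149 bp at Hoxa4, 168 bp at Hoxd10, 315 bp at Hoxd9 (2 peaks) and 343 bp at Hoxc13. The long list had 876, 1044, 519, 921, 1051 and 1429 bp at the same genes. Hoxb was the cluster with no short-list peak at any start.

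Other domains among the 10 widest surrounded Sox1, an early neural gene (chr8:12255226-12514536, 259.3 kb, 7 short-list and 33 long-list peaks), and Pax2 of the optic stalk (chr19:44619337-44779603, 160.3 kb, 5 and 27). One held Cdk5r2, Fev, Cryba2, Cfap65 and Ihh (chr1:74831861-74963076, 131.2 kb, 4 and 17), and one no protein-coding start (chr13:94568715-94726510, 157.8 kb, 1 and 12). The remaining 2 held H2-T genes (chr17:36107972-36253943, 4 and 20 peaks) and predicted genes on chromosome 13 (chr13:119939929-120111484, 5 and 21), both families of similar copies in which reads may be placed on the wrong copy.

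The domain with the most ATAC peaks was not a developmental locus. It spanned 99.0 kb on chromosome 8 (chr8:123536852-123635888), met 16 short-list and 49 long-list peaks, and contained no protein-coding start. RefSeq places 48 of its 61 autosomal rRNA genes there, at a median spacing of 1698 bp, and 15 of the short-list and 45 of the long-list peaks lay on one of them. These genes encode 5S ribosomal RNA in near-identical repeats, so the peaks and the H3K27me3 calls there are uncertain. Among wide domains with no ATAC peak in either list, the widest was 34.7 kb without a coding start (chr9:20546410-20581075). The third widest, of 29.0 kb (chr17:8421624-8450655), covered T, which encodes the mesoderm factor brachyury, and another held the olfactory receptor gene Olfr63 (chr17:33256009-33278747, 22.7 kb).

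At gene level, 5549 of 20665 protein-coding genes had H3K27me3 within 1 kb of a start, or 26.9%, and are called marked. For 16457 genes RefSeq gives the start used here. The other 4208 were placed by both annotated ends, one of which may be the 3′ end. Among genes named below these were 17 of the 39 Hox genes, Sox9, Hes1, Gnat1, Wnt10a, Tbx5 and Gata4. A gene with an ATAC peak in such a window is called open. The short list had a peak at 58.0% of all genes and the long list at 69.8%, and 63.0% had H3K27ac. Among marked genes the short list reached 3099, or 55.8%, and the long list 4698, or 84.7%. Among the 15116 unmarked genes these were 58.9% and 64.4%. Marked genes were thus slightly less often open than unmarked ones by the short list and more often open by the long list. Marked and open genes made up 15.0% of all genes by the short list and 22.7% by the long list. Of the marked genes 850 (15.3%) had a peak in neither list and 1600 (28.8%) in the long list alone. Both marks within 1 kb need not touch: when the ATAC peak itself had to meet H3K27me3, the short list counted 1795 genes in place of 3099 and the long list 3914 in place of 4698.

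The lists parted further as the mark covered more of the start. Cover was read at the most covered start of each gene, while a peak or H3K27ac at any of its starts counted. The window from 1 kb before to 1 kb after a start was fully covered by H3K27me3 at 2136 genes, where the short list had a peak at 41.8% and the long list at 91.4%, and 54.4% had H3K27ac. Where 25 to 50% of the window was covered, the short list had a peak at 71.8%, the long list at 83.5% and H3K27ac at 78.6%. By the width of the domain at the start, the short list rose from 45.5% (under 0.5 kb) to 69.6% (1 to 2 kb) and then fell to 40.3% (20 kb or more, 506 genes). H3K27ac took the same course, at 53.6%, 78.5% and 37.2%. The long list rose from 62.6% to 85.6% over the same first classes and was 86.2% at 20 kb or more. Short-list peaks were smaller in sum where the mark was complete. Their summed bases had a median of 268 bp at fully covered starts with a peak and 579 bp at unmarked ones.

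H3K27me3 itself had a different outline in the 3 kinds of marked gene. At genes with 1 listed start and a peak in both lists (1707 genes), the mark covered 59.5% of positions 1000 bp before the start, 47.6% at the start and 63.1% at 1000 bp after it. With a peak in the long list alone (949 genes) there was no dip: 76.2%, 89.6% and 85.0%. With no peak (581 genes) the mark covered 43.2%, 57.8% and 45.8%. H3K27ac covered the start of 74.4% of the first kind, 28.9% of the second and 1.20% of the third. The kinds were defined from the same peak lists, so these values describe them and support nothing further.

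**Figure D4:**
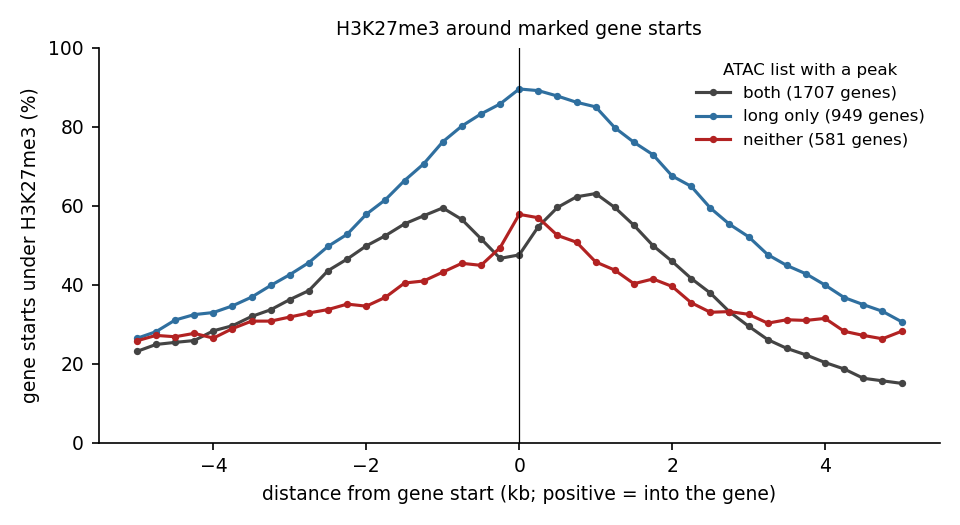
Percent of marked gene starts whose position lay under H3K27me3, by distance from the start (kb, positive into the gene), for genes with an ATAC peak in both lists, in the long list only or in neither. Genes with a peak in both lists dip to 47.6% at the start, those with a long-list peak alone reach 89.6%.

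Base composition went with this order. Over the 250 bases before the start, marked promoters with a peak in both lists held a median of 17 CpGs, those with a long-list peak alone 11, and those with neither 3. Unmarked promoters held 17, 4 and 2. Among the 808 marked promoters with 20 to 29 CpGs the short list had a peak at 75.1% (interval 72.0 to 78.1), against 99.1% (98.6 to 99.5) of 1951 unmarked ones, while the long list reached 97.6% and 99.5%. Among promoters with 0 to 4 CpGs the order was the other way, with 20.1% of marked against 11.3% of unmarked promoters in the short list and 46.7% against 18.8% in the long list. The letters TATAAA, searched on either strand, occurred in 12.4% of all promoters, in 6.03% of marked ones with a peak in both lists and in 17.1% of marked ones with neither. Unmarked promoters had the same order, with 5.52% and 27.8%, so it was not particular to marked ones.

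Gene classes were read against the 55.8% and 84.7% of all marked genes. Of 22 lists with at least 5 marked genes, 8 lay above both values, 6 below in the short list and above in the long list, and 8 below both. No interval was computed by gene list, and lists with few marked genes could change place with a single gene. Ribosomal protein genes, for example, lay above both values with 6 of 7 marked genes open in each list. Retinal progenitor genes were among the most open: 20 of 27 were marked, and the short list had a peak at 19 of the 20 and the long list at all 20. All 20 also had H3K27ac, as did all 27 genes of the list, against 65.1% of all marked genes. Sox2, a core progenitor factor (27.9 kb domain), had 487 bp of short-list and 2399 bp of long-list peaks at its start, and Zic1 (74.9 kb) 503 and 1837 bp. Nfix, a late progenitor factor, lay in an 81.3 kb domain with 6 short-list and 25 long-list peaks. Those at its start came to 209 and 1554 bp. Only Meis2, with H3K27me3 over 10.4% of its window, had a peak in the long list alone.

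Neurogenic and photoreceptor factors followed, with 13 and 16 of 16 marked neurogenic genes and 8 and 9 of 9 marked photoreceptor factors open in the short and long list. Otx2, which directs photoreceptor and bipolar fate (33.0 kb domain), had a window wholly covered by H3K27me3 and a window wholly covered by H3K27ac. These may be windows of different starts. Its peaks, 517 bp in the short list and 2056 bp in the long list, lay inside H3K27me3. Olig2 (111 and 1047 bp) and Onecut1 (148 and 1497 bp) were open in both lists. Neurod2 (41.4 kb domain, 3 long-list peaks with 2072 bp) and Bhlhe23 (23.8 kb, 528 bp) had no short-list peak and no H3K27ac, as did Esrrb, a rod factor (10.0 kb, 1192 bp).

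Ganglion cell genes lay above all marked genes in both lists, while amacrine, horizontal and bipolar cell genes lay below in the short list and above in the long list. The classes are small and share members such as Isl1 and Ebf3, so a few genes could change these positions. Of 22 marked ganglion cell genes the short list had a peak at 14 and the long list at 21, of 24 amacrine and horizontal cell genes 11 and 23, and of 14 bipolar cell genes 7 and 13. H3K27ac was present at 16, 14 and 9 of these marked genes, in the same order. Isl1 (390 and 1101 bp), Pou4f1 (481 and 1140 bp), Ptf1a (207 and 1118 bp), Barhl2 (281 and 930 bp) and Lhx4 (389 and 2282 bp) were fully covered by H3K27me3 and had peaks wholly inside it in both lists. All 5 also had H3K27ac, over 30.1%, 43.2%, 47.0%, 100% and 100% of a window, which may be that of another start. Vsx1 of cone bipolar cells (964 bp), Grm6, the glutamate receptor of ON bipolar cells (979 bp), and Pou4f2 of ganglion cells (1172 bp) had a peak in the long list alone. Irx4 and Th, the dopamine-synthesis gene of some amacrine cells, had neither. Among phototransduction genes, 8 of 20 rod genes were marked, 3 with a short-list and 6 with a long-list peak, and 5 of 12 cone genes, 1 and 4. Gnat1, the rod transducin gene, had H3K27me3 over 29.0% of its more covered window and no ATAC peak (both annotated ends were used). Gnat2, its cone counterpart, had 124 and 1554 bp.

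Of 22 Müller glia genes 7 were marked, a share near the 26.9% of all genes, with a short-list peak at 6 and a long-list peak at 7 and H3K27ac at all 7. Sox9 (373 and 1511 bp) and Hes1 (830 and 1525 bp) were among them. Of 43 subunits of NuRD and Polycomb complexes 13 were marked (30.2%), also near the share of all genes, and 11 and 13 of them were open. H3K27ac was present at all 43 subunits, marked or not. The marked ones included Bmi1 (553 and 1280 bp) and Cbx8 (692 and 1345 bp). Of the 18 short-list peaks of this list, 3 lay inside the mark, 7 at its edge and 8 beyond it.

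Regulators of other organs were marked almost without exception and open mainly in the long list. All 51 homeobox regulators of other organs were marked, 13 with a short-list and 46 with a long-list peak, and 3 had H3K27ac. Of 58 T-box, GATA, forkhead and similar regulators 55 were marked, 22 with a short-list and 50 with a long-list peak. Msx1 sat in a 116.9 kb domain with 111 bp of short-list and 1427 bp of long-list peaks at its start. Nkx2-1 of lung and thyroid (112 kb domain, 333 bp), Lmx1b (232 bp) and Pax7 (1090 bp) had long-list peaks alone. Nkx2-5 and Gata4 of the heart, Tbx5, Uncx and Evx2 had no ATAC peak at the start, although the domain of Uncx met 6 short-list and 11 long-list peaks elsewhere. Inside shares were high, with 72 of 74 long-list peaks of the homeobox list and 75 of 82 of the other list wholly within the mark, against 47.7% over all marked genes.

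All 19 Wnt ligand genes were marked, with a short-list peak at 7 and a long-list peak at 18. Neighbours within 1 domain could differ. Wnt6 and Wnt10a share 56.7 kb of H3K27me3, and Wnt10a had 391 bp of short-list peaks where Wnt6 had none and 310 bp of long-list peaks. Wnt3a and Wnt9a share 51.5 kb, with 395 bp of short-list peaks at Wnt9a and none at Wnt3a, which had 755 bp in the long list. Of 12 marked blood vessel genes 6 had a short-list and all 12 a long-list peak, among them Flt1 (253 and 1479 bp) and Erg (117 and 1050 bp).

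Olfactory and vomeronasal receptor genes were the least open class. Only 73 of 1452 were marked (5.03%, against 26.9% of all genes), with H3K27me3 over a median of 16.2% of the window. Of these 73, 1 had a short-list peak and 5 a long-list peak. Low openness was not particular to marked members: of the 1379 unmarked ones, 4 had a short-list and 18 a long-list peak. Of 108 keratin genes 31 were marked (28.7%, against 26.9% of all genes), with a short-list peak at 3, a long-list peak at 12 and neither at 19. The alpha globin genes Hba-a1 and Hba-a2 were fully covered by H3K27me3 and had no ATAC peak. These 2 are near-identical copies, where both kinds of peak are uncertain. Broadly expressed genes were seldom marked, with 1 of 28 cell cycle and 2 of 23 housekeeping genes. Of 77 genes named as ribosomal proteins 7 were marked, with H3K27me3 over a median of 26.8% of the window, and Rpl3l, the copy of heart and skeletal muscle, was fully covered with no ATAC peak. Of 57 clustered protocadherin genes 34 were marked, but none has a listed start and many share an annotated end, so single members cannot be separated.

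**Figure D5:**
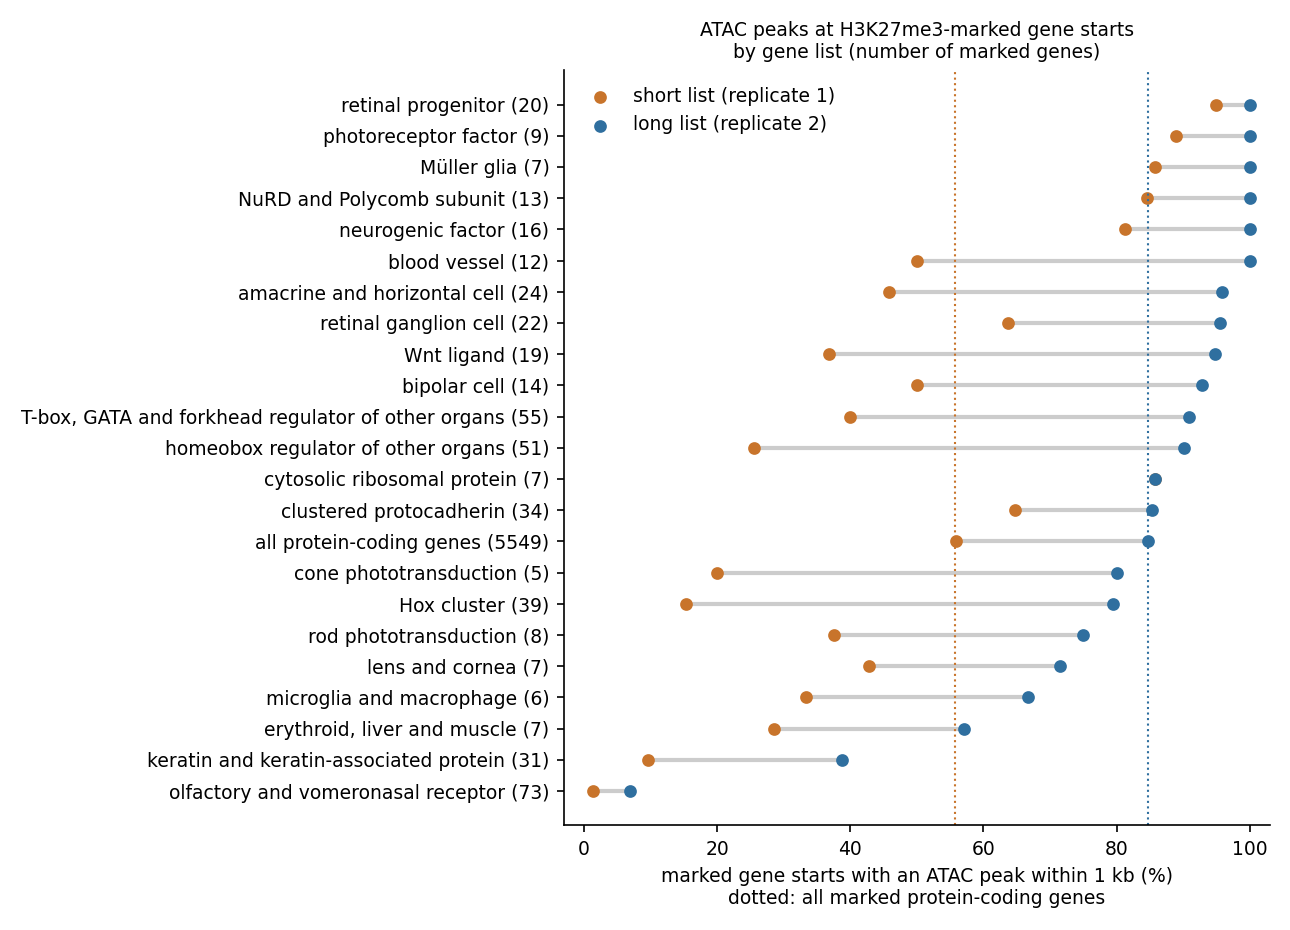
For each gene list with at least 5 marked genes, percent of marked starts with an ATAC peak within 1 kb in the short list (orange) and the long list (blue), with the number of marked genes in brackets. Dotted lines show all marked genes (55.8% and 84.7%); Hox genes and homeobox regulators of other organs have the widest spread between the lists, and retinal progenitor genes are open in both.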

How the data were processed

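Peak lists were used as the authors deposited them: positions and names, with a score of 0 for every peak, so no height or read count was available. Per the submitters' processing notes, Bowtie2, MACS2, deepTools and mm10 were used. Which versions, thresholds, calling mode or Tn5 shift applied was not given in the sources used here. Peak names point to calling per library, per the file headers. H3K27me3 broken up by the caller would move ATAC peaks from inside to edge or gap. Overlap needed 1 bp. The span runs to the last gene or peak of each chromosome (2461 Mb). Genes and promoter bases came from RefSeq (GRCm38.p6). Python 3.11.15, numpy 2.4.6, pandas 2.3.3 and scipy 1.17.1 were used; interval functions gave 0 mismatches on 1751 simulated peaks.

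Members and the 25 gene lists (522 of 529 symbols matched) were chosen with earlier results of these data known. Named genes are, per list, those in the widest domains with ATAC peaks in both lists, in the long list alone or in neither; Hox clusters and extreme domains were added. Promoters shown are the first such genes by domain width, from different lists, whose 250 bases meet the peaks of their class, a condition added after the data were seen. Knockout and input samples were not used here.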

Additional observations from a re-analysis of the deposited data

How the results depend on the processing

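No paired analysis was possible because no test was made and there is 1 H3K27me3 library. Leaving out either ATAC replicate leaves the other list, whose value stands beside it throughout. Values are for the short and then the long list, and the central 100 bp and the restriction to listed starts were chosen after seeing the data. The share of ATAC peaks that met H3K27me3 (11.0% and 12.6%) was 8.81% and 9.63% with at least 50% of the peak covered, 8.77% and 9.59% by midpoint, 9.82% and 10.7% with H3K27me3 peaks of 500 bp or wider, 11.9% and 12.8% with joined domains, 9.27% and 14.2% with ATAC peaks of 300 bp or wider, 8.47% and 9.46% away from gene ends by over 1 kb, and 9.53% and 10.1% with the central 100 bp. The long list's widest peaks, as many as the short list holds, gave 17.7%. Among meeting peaks, the inside share was 84.3% and 75.5% with joined domains and 85.4% and 89.2% with the central 100 bp. Gaps up to 3 kb held 3.82% and 1.57% of peaks. The share of domains of 5 kb or more with an ATAC peak was 44.1% and 87.4% without joining, 44.1% and 77.6% joined over 3 kb, 46.8% and 78.8% over 5 kb, and 14.0% and 73.4% with ATAC peaks of 300 bp or wider; the long list's widest peaks gave 59.7%. Marked genes with an ATAC peak (3099 and 4698) numbered 2238 and 3838 in windows of 0.5 kb, 4861 and 6513 in 2.5 kb, 6348 and 7999 in 5 kb, 1795 and 3914 when the ATAC peak itself met the mark, 1638 and 2999 with at least 50% of the window covered, 3306 and 5030 by either annotated end, and 2321 and 3484 with listed starts only. In each of these settings the long list gave the higher share or count, except for gaps and for the inside share with joined domains. The unknown depth of each library limits what a missing peak can show.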
